A study of Mus musculus with 6 samples.

Results

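The transcripts described here are those of 10 transcription factors with known roles in venous and lymphatic endothelial fate: Nr2f2, Gata2, Tbx1, Sox18, Ets1, Ets2, Klf2, Klf4, Hey1 and Mef2c. They were chosen by gene symbol, and all 10 are among the 15528 genes of the deposited count table. The mouse cells carry the label lymphatic endothelial cells, and bulk RNA was sequenced from 3 libraries of cells given red blood cells (RBC) and 3 libraries of control cells, all at 24 h. By its title the series belongs to a study of exchange between brain and cervical lymph nodes after subarachnoid hemorrhage in mice. The labels used here give no strain, origin or passage of the cells and no dose of red blood cells. They do not say whether replicates were separate cultures, so p-values reflect only how far these 6 libraries vary, and that variation may be technical.

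Endothelial cells acquire arterial, venous or lymphatic identity through a small network of transcription factors. Nr2f2 (COUP-TFII) maintains venous identity by restraining Notch signalling, and the lymphatic lineage starts when Sox18 and Nr2f2 switch on Prox1 in vein cells. Gata2 is needed for lymphatic valves, Tbx1 for growth of lymphatic vessels through the receptor gene Flt4, and Hey1 carries Notch signals that favour arterial fate. Klf2 and Klf4 respond to fluid flow, downstream of MEF2 factors such as Mef2c, and the ETS factors Ets1 and Ets2 act at many endothelial enhancers.

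Total counts lay between 18000112 and 18327247 in the RBC libraries and between 17263359 and 18381419 in the control libraries. Control replicate 2 stood apart: the mean chi-square over genes was 28.25 and 26.83 in its pairs with the other controls, whereas the other pairs within a group gave 1.73 to 2.13. No pair agreed within counting noise, so the libraries were treated as 6 separate samples. The comparison called 164 of 11208 tested genes, 1.46% (130 higher and 34 lower with red blood cells; 205 and 181 with an offset for gene length and GC content), at an adjusted p under 0.05 in edgeR's quasi-likelihood test with Benjamini-Hochberg adjustment.

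In this network 8 of the 10 factors were on and 2 were off, in both groups alike. A factor was counted as on where it had at least 1 FPKM (the authors' values, which scale counts by gene model length and library total) in each of the 3 libraries of a group. Ets1, Ets2, Nr2f2, Klf4, Tbx1, Gata2, Hey1 and Klf2 met this in RBC and in control libraries, and Sox18 and Mef2c met it in neither. Among all listed genes 62.8% met it in the controls. No factor was called between the groups, and the changes estimated for the 8 that could be tested were small, with log2 fold changes from -0.44 to 0.17.

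**Figure D1:**
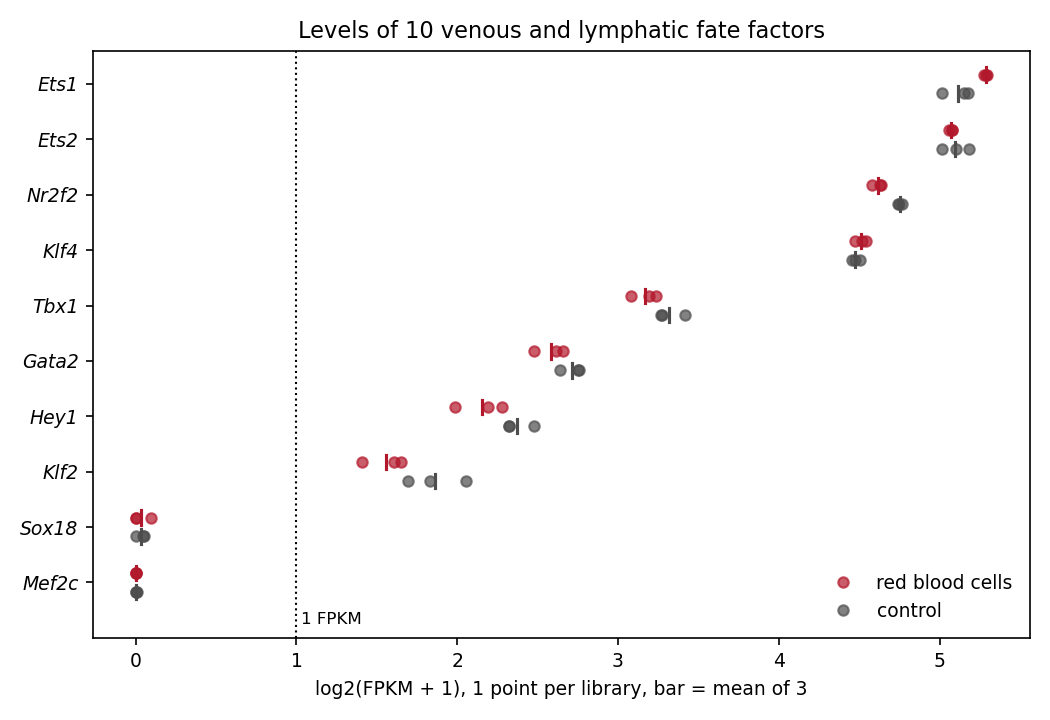
Levels of the 10 factors on the horizontal axis as log2(FPKM + 1), 1 point per library, red for RBC and grey for control libraries, with a bar at the mean of 3. The 8 factors that were on lie right of the dotted line at 1 FPKM, while Sox18 and Mef2c lie at or next to 0 in every library.

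Levels per length in the controls fell in steps. The mean control level was 33.7 ± 2.03 FPKM for Ets1 and 33.3 ± 1.99 FPKM for Ets2 (here and below, mean ± SD, n = 3), and the libraries of the pair overlapped. Below them came Nr2f2 with 26.0 ± 0.223 FPKM, Klf4 with 21.3 ± 0.393, Tbx1 with 8.99 ± 0.60, Gata2 with 5.57 ± 0.307, Hey1 with 4.19 ± 0.326 and Klf2 with 2.65 ± 0.462 FPKM. From Ets2 downward no control libraries of neighbouring factors overlapped in FPKM. In the RBC libraries the order was the same, and there Ets1 (37.7 to 38.3 FPKM) did not overlap Ets2 (32.3 to 32.8 FPKM). Ets1 stood at the 84.9th percentile of control FPKM over all listed genes and Klf2 at the 43.4th.

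The place of Klf4 in this order, and the gaps between its lowest steps, rested on the authors' gene models. The 2 tables imply a length of 7553 bases for Klf4, whereas the exons of Klf4 in GENCODE M21, on the older build GRCm38, cover 3049 bases. With the GENCODE lengths for all 10 factors Klf4 came first, with 54.0 ± 1.41 CPM (counts scaled to the library total) per kilobase in RBC libraries and 52.7 ± 0.974 in control libraries, and Ets1 followed with 24.2 ± 0.183 and 21.5 ± 1.29. With the GENCODE lengths the control libraries of Gata2 (3.24 to 3.58 CPM per kilobase) overlapped those of Hey1 (2.95 to 3.37). Those of Hey1 in turn overlapped those of Klf2 (2.2 to 3.09). The implied length of Mef2c, 56354 bases, was also 3.59 times its exons in GENCODE M21, so counts describe Mef2c better than its FPKM. For the other 8 factors the implied length was 0.615 to 0.999 of the GENCODE exons. Fold changes of 1 gene between groups do not use its length, except those given below with an offset for gene length and GC content.

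The initiators of lymphatic fate differed in level. Nr2f2, the venous factor, had 23.9, 22.9 and 23.8 FPKM in RBC replicates 1 to 3, against 25.8, 25.9 and 26.2 FPKM in control replicates 1 to 3. The groups did not overlap, and every RBC library was lower. The fitted log2 fold change of Nr2f2 was -0.14 ± 0.05 SE (95% interval -0.26 to -0.03), which missed the threshold in edgeR (adjusted p = 0.37). Its exons overlap those of B130024G19Rik on the opposite strand in GENCODE M21, and whether counting used the strand is not stated. Sox18, which switches on Prox1 in the embryo, had 2 counts over the 3 RBC libraries and 2 over the 3 controls. That is below 3 counts, which correspond to 0.055 CPM over the RBC libraries and 0.056 CPM over the controls. Prox1 was looked for but is not among the 15528 genes of the deposited count table, where the lowest row total is 1 count.

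Tbx1, an activator of Flt4 in mouse lymphatic endothelium, had 8.44, 7.45 and 8.14 FPKM in RBC libraries, against 8.67, 9.68 and 8.61 FPKM in control libraries. The groups did not overlap, but RBC replicate 1 and control replicate 3 were close and control replicate 2 was the highest. Its log2 fold change was -0.17 ± 0.08 SE (edgeR adjusted p = 0.55). Flt4 itself had 191 counts over the RBC libraries and 193 over the controls, a log2 fold change of -0.04 ± 0.19 SE. Gata2, the valve factor, had 5.32, 4.57 and 5.13 FPKM in RBC libraries, against 5.22, 5.73 and 5.77 FPKM in control libraries. These groups overlapped, and the log2 fold change of Gata2 was -0.15 ± 0.09 SE (adjusted p = 0.59).

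Among Notch readouts, Hey1 had 3.85, 2.97 and 3.57 FPKM in RBC libraries, against 3.99, 4.56 and 4.0 FPKM in control libraries. No RBC library reached the lowest control, and RBC replicate 2 was the lowest of all 6. The log2 fold change of Hey1 was -0.27 ± 0.12 SE (95% interval -0.54 to -0.01; edgeR adjusted p = 0.49). Its paralogue Hey2 had 2 counts over the RBC libraries and 9 over the controls, and Hes1, another target of Notch, had 2.98 ± 0.275 FPKM in RBC libraries and 3.70 ± 0.258 FPKM in control libraries (log2 fold change -0.31 ± 0.12 SE, adjusted p = 0.40; Hey2 and Hes1 were chosen after their values were seen). Of the 11 tested genes of the Notch list (17 receptors, ligands, cofactors and targets) none was called, 6 fold changes were negative and the median was -0.02. Notch2 was the most abundant listed receptor of that list, with 16.8 ± 0.584 FPKM in RBC libraries and 14.6 ± 3.20 FPKM in control libraries.

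Of the ETS pair, Ets1 had 37.7, 38.1 and 38.3 FPKM in RBC libraries, against 34.5, 31.4 and 35.2 FPKM in control libraries. Every RBC library was higher than every control, and the RBC libraries lay close together. The log2 fold change of Ets1 was 0.17 ± 0.06 SE (95% interval 0.04 to 0.31; edgeR adjusted p = 0.33). Ets2 had 32.8, 32.3 and 32.8 FPKM in RBC libraries, against 33.3, 31.3 and 35.3 FPKM in control libraries. The groups overlapped and the log2 fold change was -0.03 ± 0.06 SE (adjusted p = 0.87).

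Within a library the ratio of Ets1 to Ets2 FPKM, which cancels the scaling of libraries, was 1.15, 1.18 and 1.17 in RBC libraries, against 1.04, 1.0 and 0.997 in control libraries. The ratios did not overlap (log2 difference 0.20, exact two-sided permutation p = 0.10, the smallest that 3 against 3 libraries allow). This ratio and that of Klf4 to Klf2 were chosen after the values were seen. Ets1 is also abundant in lymphocytes. The leukocyte markers summed to 51.4 to 55.7 CPM in RBC libraries and 42.3 to 48.7 CPM in control libraries. Of 18 markers 14 are listed, and 4 of 6 tested were called higher. Most of each sum was Csf1r and Cd68, both on in both groups and neither called. Csf1r had a mean of 24.7 CPM in RBC libraries and 25 CPM in control libraries, and Cd68 had 21.2 and 20.6 CPM. Ptprc, the pan-leukocyte antigen, had 36 counts over the RBC libraries and 0 over the controls, while Ets1 had 11163 and 9736 counts. Their part in the Ets1 values was not tested.

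The flow factors Klf2 and Klf4 are shown with their promoter windows because Mef2c, Klf2 and Klf4 form a known regulatory chain. Both windows are RefSeq sequences of GRCm38.p6, from 250 bases before to 50 bases after the annotated start, 5′ to 3′. Klf2 lies at chr8:72318812-72319111 on the plus strand and Klf4 at chr4:55532426-55532725 on the minus strand. Capitals mark every match to the searched motifs, which in Klf2 are a MEF2 box (CTANNNNTAG) and a CACCC box (CCACCC) read on the opposite strand, and in Klf4 an E-box of the kind HEY proteins bind (CACGTG).
Klf2: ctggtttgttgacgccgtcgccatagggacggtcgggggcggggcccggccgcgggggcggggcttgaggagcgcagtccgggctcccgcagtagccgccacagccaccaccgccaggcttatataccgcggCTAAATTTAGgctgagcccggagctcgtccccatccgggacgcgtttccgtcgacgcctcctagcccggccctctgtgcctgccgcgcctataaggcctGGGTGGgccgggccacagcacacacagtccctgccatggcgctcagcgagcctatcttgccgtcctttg
Klf4: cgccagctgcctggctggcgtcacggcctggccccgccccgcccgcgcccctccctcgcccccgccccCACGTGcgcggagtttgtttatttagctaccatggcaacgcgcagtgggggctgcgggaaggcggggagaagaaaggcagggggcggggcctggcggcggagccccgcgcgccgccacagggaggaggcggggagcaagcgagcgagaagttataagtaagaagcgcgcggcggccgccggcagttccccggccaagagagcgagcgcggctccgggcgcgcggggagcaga
The MEF2 box of Klf2 reads CTAAATTTAG and begins 118 bases before the start. It was the only MEF2 box in the 11 windows of the 7 factors with an entry (Gata2, Klf2, Klf4, Ets2, Mef2c, Nr2f2 and Tbx1), and 3.69% of all 32851 promoter windows hold one on either strand. The CACCC box was in windows of Klf2, Mef2c and Tbx1 (31.5% of all windows) and the E-box in that of Klf4 alone (7.15%). A T-box half-site (GGTGTGA) was in a window of Gata2 (3.98%) and a nuclear receptor half-site (AGGTCA) in windows of Mef2c (16.3%). All motifs were searched on both strands. A GATA motif (AGATAA) was in none of the 11 windows and in 11.2% of all windows. The same held for an ETS core (CCGGAA), with 14.9% of all windows. Neither the motif of the Notch effector RBPJ (TGGGAA, in 25.6% of all windows) nor a SOX motif (AACAAT, in 10.7% of all windows) matched in the 11. No 2 matches overlapped in the windows printed. A match is a description of these letters and not a site of binding.

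Klf2 had 2.05, 1.65 and 2.14 FPKM in RBC libraries, against 2.23, 3.15 and 2.56 FPKM in control libraries. The groups did not overlap, although RBC replicate 3 and control replicate 1 were close, with 70 counts each at different depths. Klf2 had the most negative estimate of the 8 factors, with a log2 fold change of -0.44 ± 0.17 SE (95% interval -0.82 to -0.07; edgeR adjusted p = 0.40). Over the libraries of a group it rested on 192 counts with red blood cells and 258 in the controls. Klf4 had 22.3, 21.2 and 21.9 FPKM in RBC libraries, against 21.2, 20.9 and 21.7 FPKM in control libraries. The groups overlapped, and the log2 fold change of Klf4 was 0.04 ± 0.05 SE (95% interval -0.08 to 0.16; adjusted p = 0.81), a sign that turned to -0.07 with the offset for gene length and GC content, which uses the implied length of 7553 bases. The ratio of Klf4 to Klf2 FPKM was 10.9, 12.8 and 10.2 in RBC libraries, against 9.49, 6.65 and 8.47 in control libraries (exact two-sided permutation p = 0.10, the smallest possible). The level of this ratio rests on the implied length of Klf4 and would be higher with the GENCODE lengths, whereas its log2 difference between groups, 0.47, does not use a length.

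Mef2c, the factor upstream of both, had 2, 3 and 2 counts in RBC libraries, against 2, 2 and 5 counts in control libraries. The ratio of the summed counts at equal depth was 0.766, with an exact (Clopper-Pearson) 95% interval of 0.242 to 2.31 that covers counting error only. Other MEF2 genes were on: Mef2d had 21.5 ± 0.743 FPKM in RBC libraries and 19.8 ± 2.40 FPKM in control libraries, and Mef2a had 6.03 ± 0.246 and 6.18 ± 0.688 FPKM (Mef2a was chosen after its values were seen). In the list of MEF2 genes with the MEK5 and ERK5 kinases and class IIa histone deacetylases that act on them, 10 were tested and none was called (5 positive and 5 negative, median log2 fold change -0.01). Among 5 targets of Klf2 and Klf4, thrombomodulin (Thbd) had 42.5 ± 0.532 FPKM in RBC libraries and 40.9 ± 0.625 FPKM in control libraries and endothelin (Edn1) had 0.723 ± 0.124 and 0.474 ± 0.108 FPKM, neither called. S1pr1, chosen after its values were seen, had 1 count over the RBC libraries and 1 over the controls. Nos3 and Plvap are not among the genes of the count table, so Thbd alone was on.

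**Figure D2:**
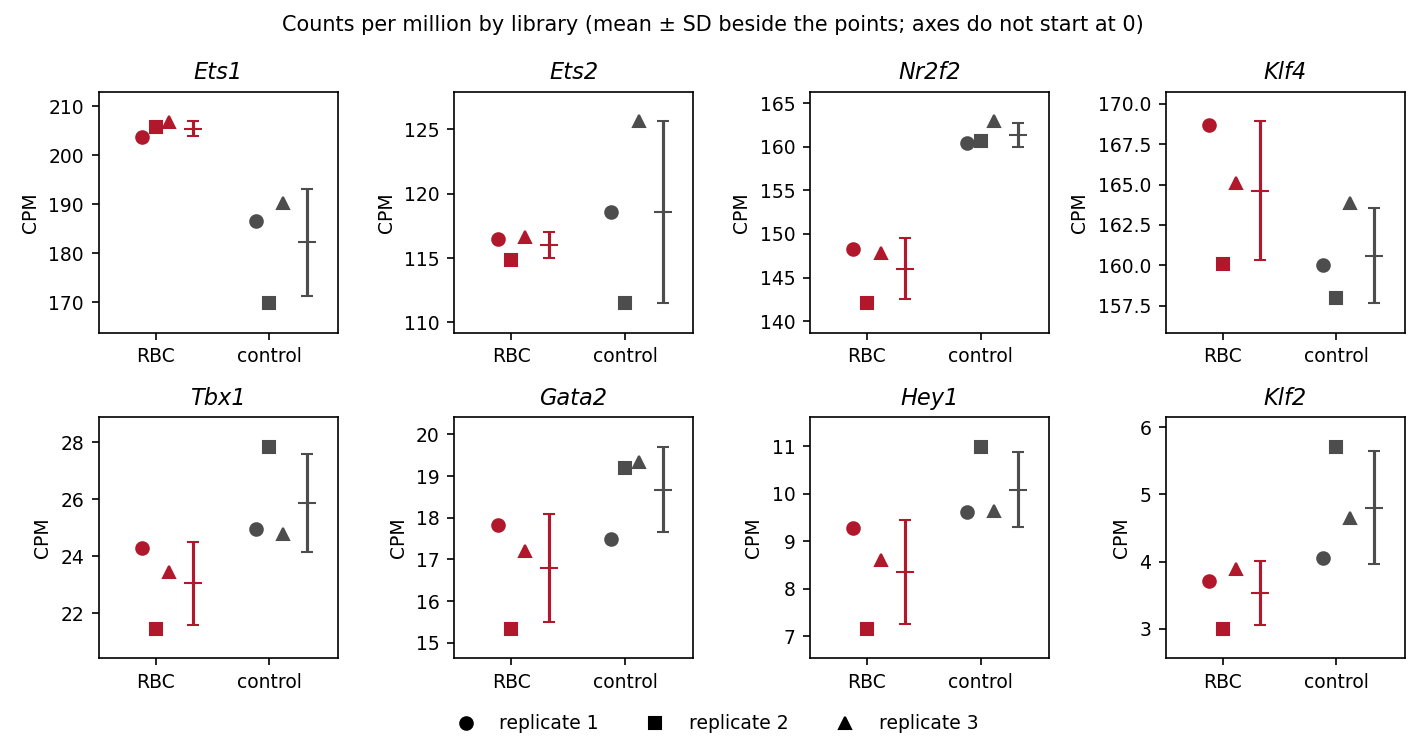
CPM of the 8 factors that were on, 1 panel each, RBC libraries left and control libraries right, with marker shapes for the replicate number and mean ± SD beside the points; axes do not start at 0. Ets1 is higher in all 3 RBC libraries, Nr2f2, Tbx1, Hey1 and Klf2 are lower in all 3, and in Ets2, Klf4 and Gata2 the groups overlap.

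Across the 8 tested factors none passed the threshold in edgeR, DESeq2 or limma voom, beside 1.46% of all tested genes called in edgeR. At an unadjusted p under 0.05 there were 4 (Ets1, Nr2f2, Klf2 and Hey1), where 9.99% of all tested genes had one. In 5 of 8 the groups did not overlap, against 19.6% of all tested genes. In 4 of these, Nr2f2, Tbx1, Hey1 and Klf2, the RBC libraries were the lower ones, which held for 9.19% of tested genes. Of the fold changes 6 were negative and 2 positive, with a median of -0.15, against -0.003 over all tested genes. The factors were picked with earlier results of these data known, so these shares describe them and test nothing. RBC replicate 2 was the lowest RBC library in Nr2f2, Gata2, Tbx1, Hey1, Klf2, Klf4 and Ets2, and leaving it out moved the estimates of Gata2, Hey1, Tbx1 and Klf2 to -0.09, -0.17, -0.12 and -0.34.

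Control replicate 2 weighed on these estimates. It was the highest or lowest control in 6 of the 8 tested factors, highest in Klf2, Hey1 and Tbx1 and lowest in Ets1, Ets2 and Klf4. Among 3 controls any library is an extreme in most genes, and the share over all tested genes was not counted, so this count only describes. Without it the estimates of Klf2, Hey1 and Tbx1 were -0.30, -0.21 and -0.11. Then 7.96% of tested genes were called in edgeR, and 2 of the 8 factors were among them. Nr2f2 was then lower with red blood cells (log2 fold change -0.15 ± 0.04 SE, adjusted p = 0.0041, between 0.0041 and 0.86 over all alternatives). Ets1 was higher (0.12 ± 0.03 SE, adjusted p = 0.012, between 0.012 and 0.86). Limma voom with library quality weights, which called 5.81% of genes, passed the same pair, with adjusted p = 0.027 for Nr2f2 and 0.048 for Ets1. With all 6 libraries and the offset for gene length and GC content they had log2 fold changes of -0.20 and 0.13 and adjusted p = 0.064 and 0.068.

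**Figure D3:**
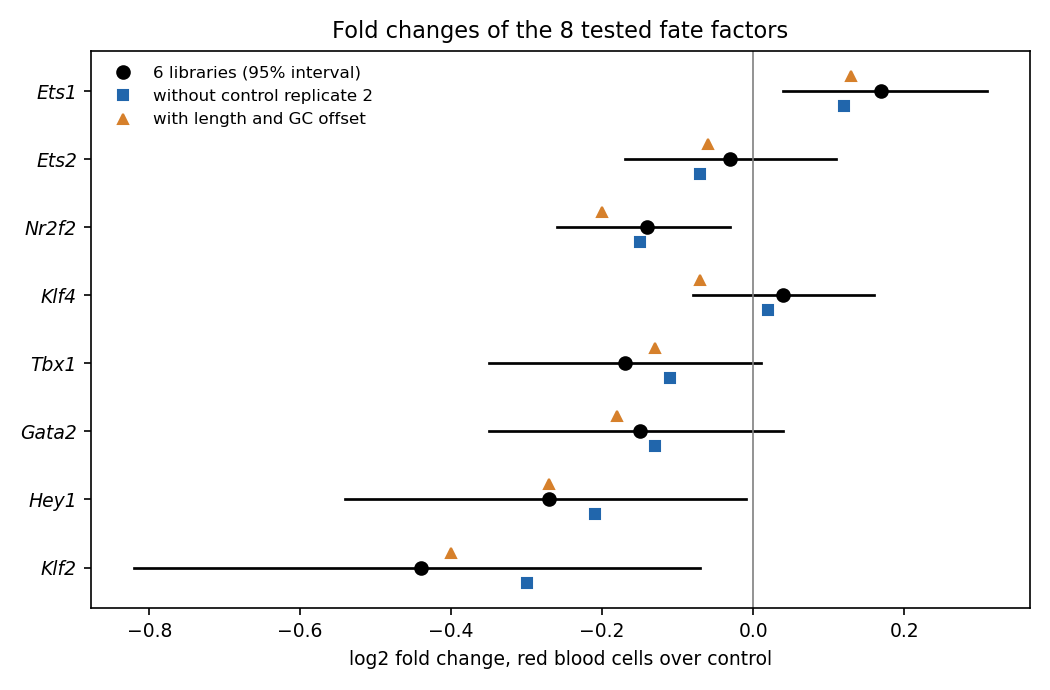
Log2 fold changes, RBC over control, of the 8 tested factors. Black points with 95% intervals are from the fit of 6 libraries, blue squares leave out control replicate 2 and orange triangles use the length and GC offset. The estimates of Klf2 move from -0.44 to -0.30 without control replicate 2, and those of Nr2f2 lie at -0.14, -0.15 and -0.20.

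Relatives of the 10 factors were described from 9 lists of 111 genes: the NR2F and PROX, GATA and FOG, T-box, SOX, ETS, KLF and MEF2 families, Notch signalling, and other endothelial fate factors. Of these 85 are listed in the tables and 64 were tested, with 2 called higher with red blood cells and none lower (3.12%, against 1.46% of all tested genes) and a median log2 fold change of 0.03. Without control replicate 2 the calls were 5 higher and 4 lower of 64, where 7.96% of all tested genes were called, and 2 of the lower ones were in the KLF list. In the NR2F list Nr2f6 had 8.37 ± 0.324 FPKM in RBC libraries and 8.73 ± 0.508 FPKM in control libraries, and Nr2f1, the closest relative of Nr2f2, had 0.943 ± 0.105 and 0.899 ± 0.0853 FPKM. In the KLF list Klf10 and Klf3 were the most abundant, with 29.3 ± 0.525 and 19.2 ± 0.533 FPKM in RBC libraries and 29.5 ± 0.696 and 21.5 ± 1.37 FPKM in control libraries. Of its 9 tested genes none was called with all 6 libraries.

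Relatives of Tbx1 and Sox18 reached levels like those of the factors that were on. In the T-box list, with none of 5 tested called, Tbx15 had 13.5 ± 0.283 FPKM in RBC libraries and 14.2 ± 0.561 FPKM in control libraries. Tbx3, a repressor in the same family, had 5.55 ± 0.238 FPKM in RBC libraries and 4.26 ± 0.36 FPKM in control libraries (log2 fold change 0.38 ± 0.08 SE, edgeR adjusted p = 0.06). In the SOX list neither of the tested genes was called: Sox9, a factor of cartilage and epithelia, had 13.6 ± 0.574 FPKM in RBC libraries and 13.3 ± 1.6 FPKM in control libraries, and Sox4 had 12.9 ± 0.854 and 11.5 ± 0.124 FPKM. Among the 20 listed ETS genes, Gabpa had 24.5 ± 0.66 FPKM in RBC libraries and 24.4 ± 0.751 FPKM in control libraries, and Elk3 had 16 ± 0.361 and 16.9 ± 0.647 FPKM. Nrp2, the co-receptor of venous and lymphatic endothelium, had 44.5 ± 1.99 FPKM in RBC libraries and 33.5 ± 6.48 FPKM in control libraries, a log2 fold change of 0.41 ± 0.12 SE that was not called (adjusted p = 0.27). Without control replicate 2, its lowest control, the estimate was 0.26 and Nrp2 was called.

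Zfpm2 (FOG2), a cofactor that binds GATA factors and Nr2f2, rose with red blood cells. It had 14.3, 14.7 and 13.7 FPKM in RBC libraries, against 10.1, 9.29 and 10.4 FPKM in control libraries, and the groups were far apart (log2 fold change 0.52 ± 0.06 SE, edgeR adjusted p = 0.005). It lost the call without RBC replicate 2, and its log2 fold change lay between 0.47 and 0.56 with a library left out. Its relative Zfpm1 had 9.39 ± 0.206 FPKM in RBC libraries and 9.93 ± 0.519 FPKM in control libraries (log2 fold change -0.08). Ehf, an ETS factor of epithelia, rose to 43, 36 and 31 counts in RBC libraries, against 11, 8 and 16 counts in control libraries (log2 fold change 1.62 ± 0.27 SE, adjusted p = 0.024). It lost the call without any one RBC library or without control replicate 1, and its level stayed under 1 FPKM in both groups.

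**Figure D4:**
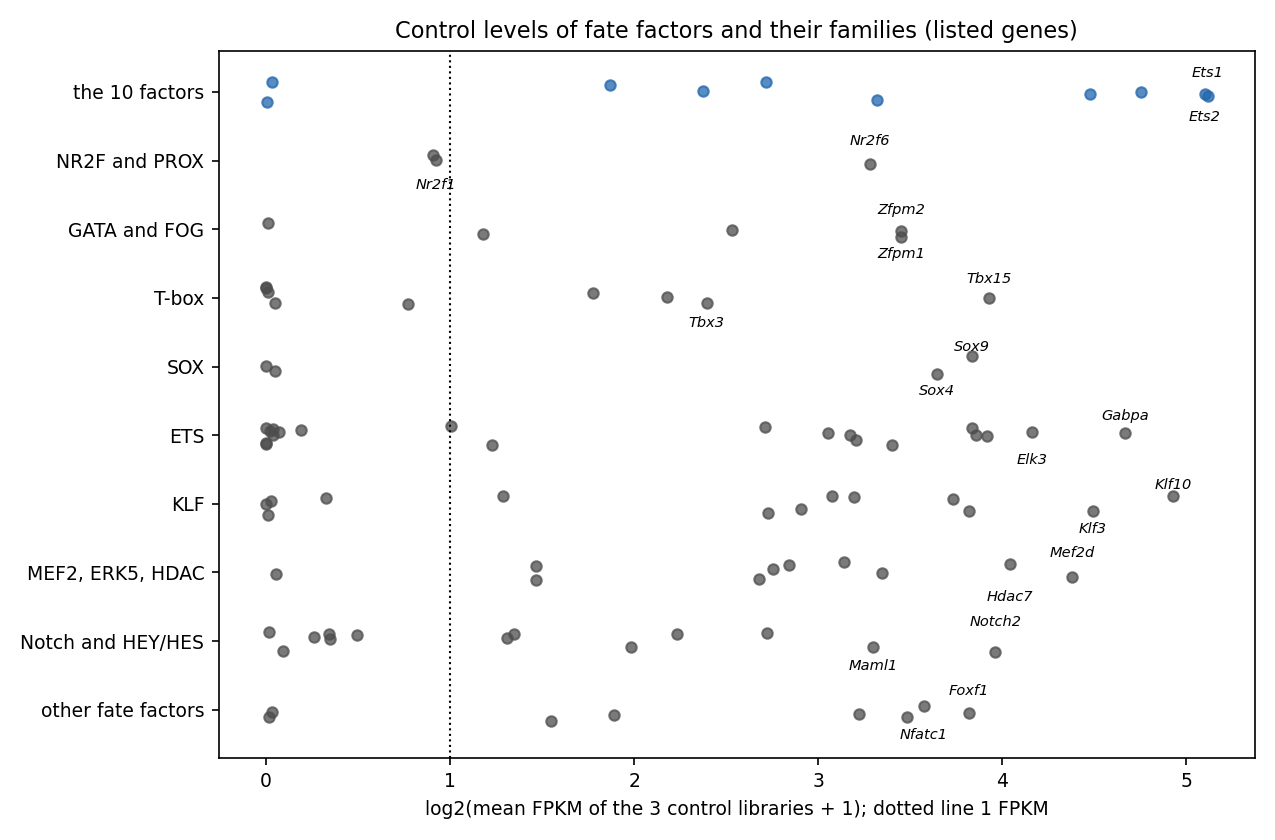
Mean control FPKM, as log2(FPKM + 1), of the 10 factors (top row) and of the listed genes of 9 related lists, 1 point per gene with the 2 highest of each row named and the vertical position within a row random. Points gather both right of the dotted line at 1 FPKM and at or next to 0, where Sox18 and Mef2c stand.

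Among the factors at or next to 0 were several that mark endothelial cells. Sox7, a partner of Sox18, had 1 count over the RBC libraries and 6 over the controls, Fli1 had 1 and 0, Lmo2 had 10 and 3, and Lyl1 had 8 and 1 (chosen after their values were seen). Erg, Sox17, Tal1, Hhex and Foxc2 were looked for but, like Prox1, are not among the genes of the count table. Some factors of venous and lymphatic cells that other lineages share were on, such as Foxf1 with 12.5 ± 0.0437 FPKM in RBC libraries and 13.1 ± 0.261 FPKM in control libraries and Nfatc1 with 11.4 ± 0.134 and 10.9 ± 1.14 FPKM. The vessel markers showed a similar split. The venous receptor Ephb4 and its arterial ligand Efnb2 were both on, with 14.3 ± 0.533 and 28.9 ± 0.742 FPKM in RBC libraries and 13.8 ± 0.998 and 34.4 ± 1.65 FPKM in control libraries (Efnb2 log2 fold change -0.25 ± 0.06 SE, edgeR adjusted p = 0.092, and -0.29 and called without control replicate 2; Ephb4 was chosen after its values were seen), whereas Cdh5 had 11 and 7 counts and Kdr 1 and 0. Pecam1 had 4.13 ± 0.12 FPKM in RBC libraries and 4.49 ± 0.563 FPKM in control libraries. Endoglin (Eng) had 28.8 ± 0.206 FPKM in RBC libraries and 28.9 ± 2.38 FPKM in control libraries, and Egfl7 had 2.72 ± 0.298 and 2.58 ± 0.05 FPKM. Of 16 pan-endothelial markers 9 are listed, and they summed, mostly through Eng, to 117 to 119 CPM in RBC libraries and 112 to 124 CPM in control libraries, with no call among 4 tested. The lymphatic markers Pdpn and Itga9 had 2 and 1 counts with red blood cells and 6 and 0 in the controls, while Stab1, an endocytic receptor also found on macrophages, rose to 7.82 ± 0.0621 FPKM in RBC libraries, against 3.80 ± 0.722 FPKM in control libraries (log2 fold change 1.04 ± 0.12 SE, edgeR adjusted p = 0.0029). The 7 listed of 12 lymphatic markers summed to 417 to 446 CPM in RBC libraries and 239 to 341 CPM in control libraries, with 1 of 3 tested called. Nearly all of that sum was Nrp2 and Stab1, and its lowest value was that of control replicate 2. Reln and Stab2 had 5 and 1 counts over the RBC libraries and 4 and 3 over the controls. Some markers of other lineages were abundant and others were at or near 0. Of 8 listed epithelial and mesothelial markers 4 were on in both groups (Krt8, Msln, Krt18 and Krt14). Krt8 had 216 ± 3.68 FPKM in RBC libraries and 248 ± 19 FPKM in control libraries, and Msln had 93.6 ± 1.72 and 92.0 ± 0.967 FPKM. Krt18 had 23 ± 0.456 and 32 ± 5.23 FPKM (log2 fold change -0.48 ± 0.11 SE, edgeR adjusted p = 0.084). Without control replicate 2 its estimate was -0.34 and Krt18 was called. Krt5, Krt19 and Wt1 had at most 2 counts in a group. Of 11 listed fibroblast and mural markers, Col1a2 had 85.9 ± 1.9 FPKM in RBC libraries and 88.9 ± 4.93 FPKM in control libraries and made up nearly the whole sum. Pdgfra had 1.51 ± 0.0417 and 1 ± 0.165 FPKM (log2 fold change 0.59 ± 0.12 SE, edgeR adjusted p = 0.054). Without control replicate 2 its estimate was 0.46 and Pdgfra was called. Col1a1 had 4 and 6 counts and Col3a1 had 11 and 17. Most markers of the labelled cell type were thus at or near 0 or missing from the count table. Of 16 pan-endothelial markers 3 were on in both groups (Eng, Pecam1 and Egfl7), and of 12 lymphatic markers 2 were (Nrp2 and Stab1). Cdh5, Kdr, Flt1, Tek, Vwf, Esam, Pdpn and Sox18 were at or near 0. Lyve1, Prox1, Tie1, Cldn5 and Emcn are among those missing from the count table. The 10 factors are described as RNA of the cells so labelled.

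Among valve genes none of 4 tested was called with all 6 libraries. Fibronectin (Fn1) had 136 ± 1.3 FPKM in RBC libraries and 125 ± 35.2 FPKM in control libraries, and connexin 43 (Gja1) had 121 ± 0.674 and 108 ± 1.24 FPKM, with log2 fold changes of 0.11 ± 0.18 and 0.16 ± 0.05 SE. All 4 fold changes were positive, with a median of 0.15, but this rested on control replicate 2. Without that library Fn1 and Lama5, a laminin chain, turned to -0.10 and -0.12 and were called lower with red blood cells, Gja1 was called higher at 0.15, and Piezo1, a flow-gated channel, stood at 0.04 (Lama5 and Piezo1 were chosen after their values were seen).

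Transcripts of red cells themselves moved with the treatment. The 12 erythroid markers summed to 580 to 666 CPM in RBC libraries and 40.3 to 45.2 CPM in control libraries. Nearly all of the control sum was Bpgm, with a mean of 42.1 CPM in RBC libraries and 39 CPM in control libraries (not called). Of 6 tested 5 were called higher, and Hbb-bs had 17987 and 81 counts. The called genes, adult globins and Alas2, had log2 fold changes from 6.92 to 7.77. The erythroid factors Klf1 and Gata1, relatives of Klf2, Klf4 and Gata2, had 12 and 2 counts over the RBC libraries and 20 and 1 over the controls. With the erythroid markers left out before scaling no factor was called either. In bulk RNA a different share of cells and a different amount per cell cannot be told apart.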

How the data were processed

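TRIzol extraction and a strand-specific mRNA library kit were used, per the labels' protocols. The build was GRCm39, per the submitters' processing notes. The sources used here do not name an aligner, a counter, its strand setting or an annotation. The authors deposited raw counts per gene symbol and FPKM of the same reads. The FPKM equalled count divided by a gene length and by the library's total of listed counts (largest relative departure 3.6e-09 over 9357 genes), so they are no second measurement. Reads carry no molecular identifiers and are not independent, so intervals on counts and floors (3 counts) cover counting error only. At the depths given above 3 counts in a library correspond to 0.163 to 0.174 CPM.

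The count test was edgeR 4.0.16 under R 4.3.3: filterByExpr (minimum count 10, minimum total 15; 11208 genes with 99.96% of counts), TMM scaling, glmQLFit and glmQLFTest with group as the design, two-sided, Benjamini-Hochberg adjustment over all genes tested, calls at adjusted p under 0.05. The standard error is the log2 fold change divided by the root of the quasi-likelihood F statistic, and 95% intervals use its degrees of freedom. Of the 10 factors 8 passed the filter. FPKM were tested with limma 3.58.1 on log2(FPKM + 1) where a group's mean reached 1 FPKM. The pipeline was also run on simulated counts with known fold changes. Those counts held no outlying library and no trend with length or GC content, so they do not cover a library like control replicate 2.

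Alternatives were RLE scaling, no scaling, DESeq2 1.42.0, voom with and without library quality weights, other filters, erythroid markers left out, an offset that removes library trends over gene length and transcript GC content (98.1% of tested genes matched by symbol), the replicate number as a block, and each library left out. The factors and gene lists were chosen with earlier results of these data known. The rule for named genes took the 10 factors, from each related list those called and the 2 highest in control FPKM, and from each marker list those called and the 3 highest, of which the text gives the ones its results touch; others are said to be chosen after their values were seen or are defining markers. The rule would also have named genes with profiles like a called factor; no factor was called. Promoter windows came from RefSeq (GRCm38.p6); they matched 7 of the 10 factors.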

Additional observations from a re-analysis of the deposited data

How the results depend on the processing

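The 8 factors on in the controls were 8 at 0.5 and 2 FPKM, at 1 CPM and with each control left out; in the RBC libraries 7 passed at 2 FPKM. The number called stayed at 0 in limma on FPKM and in edgeR or DESeq2 under other scaling and filters, and was 2 with voom quality weights and 0 to 2 with a library left out (2 without control replicate 2 only). Of 136 alternative estimates of the 8 factors 133 kept their sign; Ets2 turned to 0.01 without control replicate 3 and Klf4 to -0.07 with the length and GC offset and -0.06 when the replicate block was added to it. Calls over all genes moved from 164 to 651 with voom quality weights, 386 with the length and GC offset, 308 with that offset and the block, and 62 to 899 with a library left out. The cause was not tested. With the replicate number as a block, 126 genes and 0 factors were called. The labels do not say whether replicates of the same number share more than that number. Their deviations from the group means correlated at -0.0141, 0.0448 and 0.063 over tested genes. RBC replicates 2 and 3 correlated best with the control of the same number, and RBC replicate 1 with control replicate 2 (0.02). Depth limits Sox18 and Mef2c, at 2 to 9 counts a group, and Klf2, whose interval spans 0.565-fold to 0.956-fold.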
